A study of Rattus with 9 samples.

Results

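The 6 genes described here encode the opioid, nociceptin and cannabinoid receptors: Oprm1, Oprd1, Oprk1, Oprl1, Cnr1 and Cnr2. They were chosen by gene symbol, and all 6 were found among the 17378 rows of the count table. Poly-A RNA was sequenced from thoracic dorsal root ganglia of SD rats 8 weeks after coronary ligation, which causes myocardial infarction (MI, n = 5), or after sham surgery (Sham, n = 4). Each library came from 1 rat by its label, and age and sex of the rats are not given in the sources used here. The deposited tables name the MI group CHF. No transgene, drug or other allele is named for either group.

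The sensory neurons that carry pain and reflex signals from the heart have their cell bodies in these ganglia, among glia, macrophages and vessels. Opioid, nociceptin and cannabinoid receptors are G protein-coupled receptors that act through inhibitory Gi/o proteins. In sensory neurons their activation lowers cyclic AMP, closes presynaptic calcium channels and opens potassium channels, which reduces transmitter release. Among them are the sites of action of morphine-like analgesics, of endogenous opioid peptides and of cannabinoids.

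Total counts per library lay between 5656582 and 6861355, and RNA integrity numbers between 8.0 and 8.5. All 10 pan-neuronal markers were counted in every library, with a summed level of 20752 to 23384 CPM (counts per 1000000, TMM-scaled) in MI and 20336 to 21396 CPM in Sham ganglia. Markers of spinal cord glia summed to at most 59.1 CPM and markers of sympathetic neurons to at most 5.81 CPM in any library. Of the matched markers, 3 of 7 for spinal cord glia and 2 of 5 for sympathetic neurons were counted in every library. Olig2 and Phox2a, from these lists, had no count. Aqp4 of the spinal cord list varied widely between rats, at 8.30 ± 10.4 CPM in MI and 8.56 ± 10.9 CPM in Sham (± SD). The summed levels overlapped between groups for myelinated afferents (9249 to 10671 CPM in MI, 9416 to 10141 CPM in Sham), satellite glia (4656 to 5354 CPM in MI, 4557 to 5351 CPM in Sham) and fibroblasts (3478 to 6023 CPM in MI, 4437 to 5457 CPM in Sham). They also overlapped for endothelial cells (208 to 289 CPM in MI, 204 to 262 CPM in Sham) and T cells (27.0 to 40.6 CPM in MI, 19.6 to 36.8 CPM in Sham). Of 11711 tested genes, 2 passed an adjusted p of 0.05 between MI and Sham in the edgeR likelihood-ratio test, which is 0.0171%. By edgeR quasi-likelihood the number was 0, with 602 genes (5.14%) at an unadjusted p under 0.05, and by DESeq2 it was 2.

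All 6 receptors were detected in all 9 rats, at levels that spanned a wide range. The levels were set in order by the authors' RPKM, which divides reads by gene length and library size. The nociceptin receptor gene Oprl1 had the highest level, at 11.0 ± 0.981 RPKM (SD, n = 9). The CB1 cannabinoid receptor gene Cnr1 followed at 4.13 ± 0.501 RPKM and the mu opioid receptor gene Oprm1, target of morphine and of endogenous opioid peptides, at 3.25 ± 0.536 RPKM (SD, n = 9 each). The kappa receptor gene Oprk1 stood at 1.71 ± 0.522 RPKM, the delta receptor gene Oprd1 at 0.888 ± 0.331 RPKM and the CB2 receptor gene Cnr2 at 0.313 ± 0.140 RPKM (SD, n = 9 each). Among all rows of the table, 4778 genes had a higher mean RPKM than Oprl1, 8773 a higher one than Oprm1 and 12104 a higher one than Cnr2.

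Each neighbour in this order differed from the next on average, in paired exact sign-flip tests on log2(RPKM + 0.1) over the 9 rats, and the ratios given are on that scale. The order itself was taken from the mean RPKM of the same 9 rats. The level of Oprl1 was 2.64 times that of Cnr1 and higher in 9 of 9 rats (two-sided exact p = 0.00391, adjusted p = 0.00488 over 5 neighbour pairs). The level of Cnr1 was 1.27 times that of Oprm1 and higher in 8 of 9 rats, the exception being Sham 4 (exact p = 0.00781, adjusted p = 0.00781). Oprm1 exceeded Oprk1 1.91-fold, Oprk1 exceeded Oprd1 1.85-fold and Oprd1 exceeded Cnr2 2.41-fold, each in 9 of 9 rats (exact p = 0.00391 and adjusted p = 0.00488 for each). The ratio of Oprd1 to Cnr2, both low, depended on the pseudocount: its log2 was 1.27 with 0.1 added, 1.53 with 0.01 added and 0.51 with 1 added. An exact p of 0.00391 is the smallest that 512 sign flips can give. The gene lengths implied by counts, RPKM and total reads were 1417 bases for Oprd1, 3033 for Oprl1, 3418 for Cnr2, 3773 for Oprm1, 4739 for Oprk1 and 5465 for Cnr1. Reads outside these gene models are not in the values, so the order holds for the models the authors counted on.

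**Figure D1:**
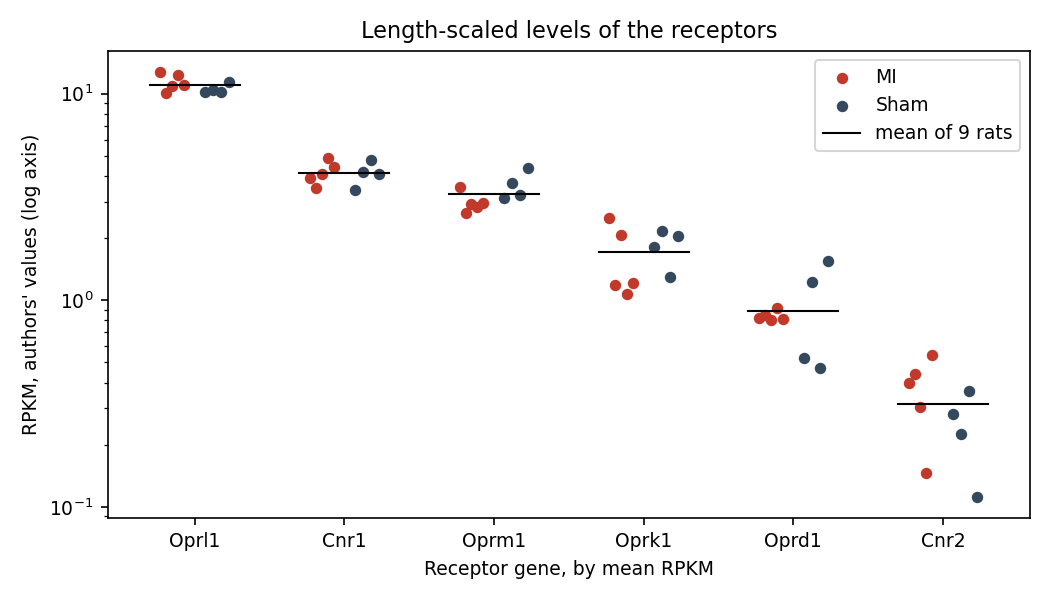
Length-scaled level (RPKM, log axis) of each receptor gene in the 5 MI rats (left) and the 4 Sham rats (right); the black line is the mean of the 9 rats. Oprl1 lies highest, at a mean of 11.0 RPKM, and Cnr2 lowest, at 0.313 RPKM.

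None of the 6 receptors passed the threshold between MI and Sham, and in all 6 the groups overlapped. Over all tested genes the groups did not overlap for 1.74%, with MI higher in 0.837% and MI lower in 0.905%. All 6 passed the filter on low counts. The log2 fold change of MI over Sham was below 0 for the 3 classical opioid receptors and above 0 for Oprl1, Cnr1 and Cnr2, with a median of -0.08, against a median of 0.00175 and 49.2% of genes below 0 over all tested genes. The sign for Oprd1 turned when Sham 4 was left out, and that for Cnr1 when Sham 1, MI 4 or MI 5 was left out. In whole ganglia, fewer cells of a type and less RNA per cell cannot be told apart.

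**Figure D2:**
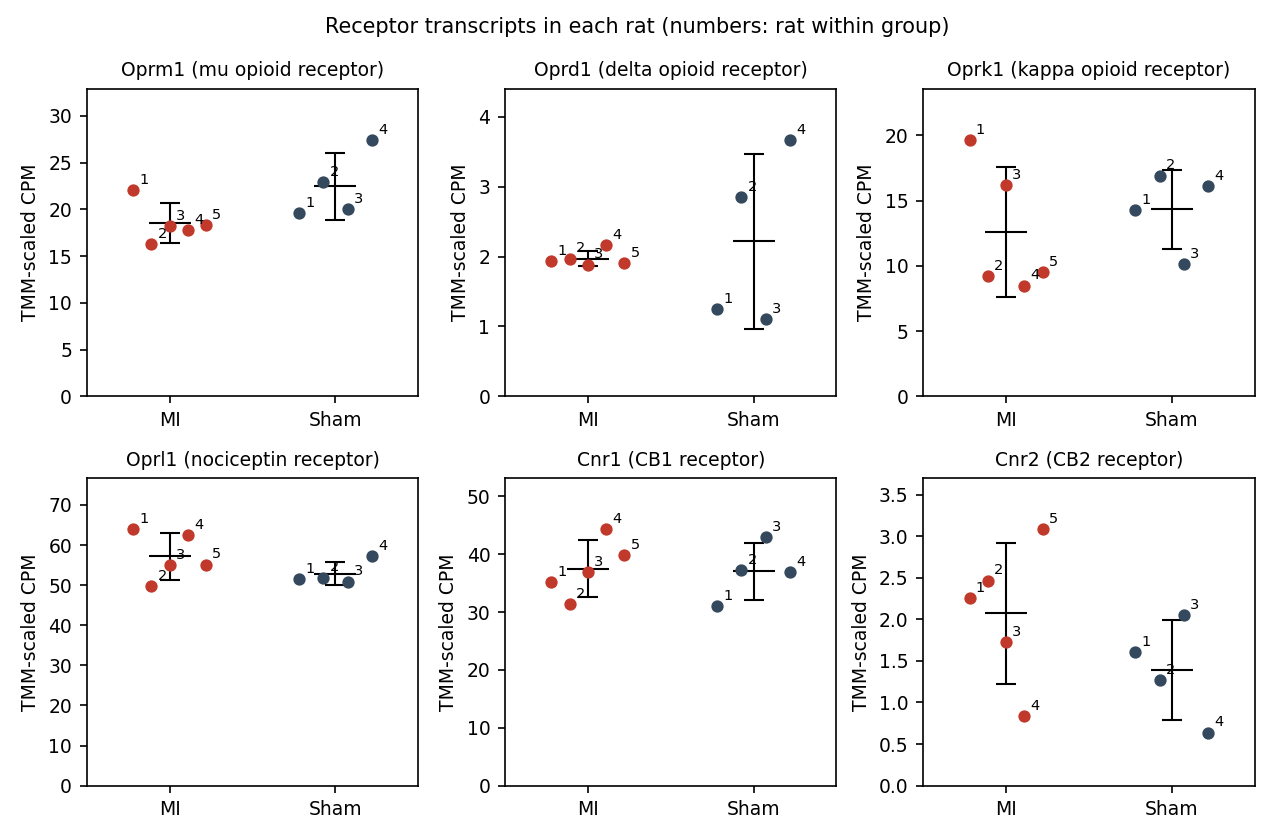
TMM-scaled CPM of each receptor gene in every rat, with MI left of Sham; numbers give the rat within its group, and the bar and whiskers give mean and SD. MI and Sham rats overlap for every receptor, and for Oprm1 the highest rat is Sham 4 at 27.4 CPM.

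Oprm1 showed the smallest p of the 6 receptors. It stood at 22.05, 16.3, 18.2, 17.8 and 18.3 CPM in MI rats 1 to 5, against 19.6, 22.9, 20.1 and 27.4 CPM in Sham rats 1 to 4. In MI, 4 of the 5 rats lay below all 4 Sham rats, while MI 1 lay among them. The mean was 18.5 ± 2.13 CPM for 5 MI rats, against 22.5 ± 3.58 CPM for 4 Sham rats (± SD). This is a fold change of 0.823 (log2 -0.28, SE 0.12, edgeR likelihood-ratio unadjusted p = 0.0295, adjusted p = 1.00). The quasi-likelihood test gave an adjusted p of 0.920. An unadjusted p under 0.05 was found for 543 of the tested genes, or 4.64%, and 266 of these, or 2.27%, were lower in MI. An exact permutation test of the log2 CPM over all assignments of the 9 rats gave a two-sided p of 0.0714, where the smallest possible is 0.00794. The 95% interval of the log2 fold change from limma-voom was -0.53 to -0.02, unadjusted for the number of genes. Without Sham 4 the log2 fold change was -0.17, with an unadjusted likelihood-ratio p of 0.177.

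In the RefSeq annotation (assembly GRCr8) Oprm1 overlaps Ipcef1, and counts without strand cannot separate overlapping genes. Ipcef1 had 4 to 11 counts per library, against 99 to 172 for Oprm1. Oprm1 also overlaps a long noncoding RNA gene and the pseudogene Yes1-ps1, and Cnr1 overlaps a long noncoding RNA gene and a pseudogene. These were not among the counted genes, so their part in the values was not tested. Markers of peptidergic nociceptors, a neuron class in which Oprm1 is known to be expressed, had log2 fold changes below 0 in 8 of 8 tested genes. Their median was -0.14. The values ran from -0.40 for Trpa1 to -0.04 for Calca, with Tac1 at -0.05, and none of these markers passed the threshold. Their summed level was 2231 to 3121 CPM in MI and 2690 to 3000 CPM in Sham ganglia, and no marker was at 0. Their part in the Oprm1 value was not tested.

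Oprd1, the delta opioid receptor gene, had few reads. Its counts were 12, 12, 12, 13 and 13 in MI rats 1 to 5, against 7, 18, 7 and 23 in Sham rats 1 to 4. The MI rats were nearly alike and lay inside the range of the Sham rats, which formed a low and a high pair. The level was 1.97 ± 0.113 CPM for 5 MI rats, against 2.22 ± 1.25 CPM for 4 Sham rats (± SD). The coefficient of variation was 5.71% in MI and 56.3% in Sham, where counting error alone would give 28.4% and 27.0%. The fold change was 0.884 (log2 -0.18, SE 0.32, edgeR likelihood-ratio adjusted p = 1.00). The limma-voom log2 fold change was -0.0083, with a 95% interval from 0.602-fold to 1.64-fold. Without Sham 4 the log2 fold change of the likelihood-ratio fit was 0.17.

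Oprk1, the kappa receptor gene and target of dynorphins, varied most between MI rats among the 4 receptors with over 50 counts in every library. Its level was 19.6, 9.20, 16.2, 8.49 and 9.53 CPM in MI rats 1 to 5, against 14.3, 16.9, 10.1 and 16.1 CPM in Sham rats 1 to 4. MI 1 stood above every Sham rat and MI 3 among the higher Sham rats, and the other 3 MI rats lay below the lowest. The coefficient of variation was 39.7% in MI and 21.1% in Sham, where counting error alone would give 11.2% and 10.7%. The mean was 12.6 ± 5.00 CPM for 5 MI rats, against 14.3 ± 3.03 CPM for 4 Sham rats (± SD), a fold change of 0.879 (log2 -0.19, SE 0.31, edgeR likelihood-ratio adjusted p = 1.00). The 95% interval from limma-voom was -0.75 to 0.27 on the log2 scale. The edgeR dispersion of Oprk1, 0.0543, was higher than that of 96.2% of tested genes.

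Oprl1, the receptor gene for nociceptin, had the narrowest interval of the 6. Its level was 63.9, 49.8, 55.0, 62.4 and 55.1 CPM in MI rats 1 to 5, against 51.5, 51.9, 50.9 and 57.2 CPM in Sham rats 1 to 4. MI 1 and MI 4 lay above every Sham rat and MI 2 below every Sham rat. The mean was 57.2 ± 5.84 CPM for 5 MI rats, against 52.9 ± 2.92 CPM for 4 Sham rats (± SD), a fold change of 1.08 (log2 0.11, SE 0.08, edgeR likelihood-ratio adjusted p = 1.00). The 95% interval from limma-voom ran from 0.960-fold to 1.21-fold. The Sham coefficient of variation, 5.52%, was close to the 5.55% that counting error alone would give.

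Cnr1, the CB1 receptor gene that mediates most neuronal cannabinoid effects, had the fold change closest to 1 in the edgeR likelihood-ratio fit. By limma-voom Oprd1 was closer, at log2 -0.0083 against 0.013 for Cnr1. It stood at 35.2, 31.4, 36.9, 44.3 and 39.9 CPM in MI rats 1 to 5, against 31.0, 37.3, 43.0 and 37.0 CPM in Sham rats 1 to 4. The ranges of the groups nearly coincided. The mean was 37.5 ± 4.87 CPM for 5 MI rats, against 37.1 ± 4.90 CPM for 4 Sham rats (± SD), a fold change of 1.01 (log2 0.02, SE 0.13, edgeR likelihood-ratio adjusted p = 1.00). On the log2 scale the limma-voom 95% interval was -0.22 to 0.24.

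Cnr2, the CB2 receptor gene known mainly from immune cells, had the fewest reads and the largest fitted fold change. Its counts were 14, 15, 11, 5 and 21 in MI rats 1 to 5, against 9, 8, 13 and 4 in Sham rats 1 to 4. The highest value was in MI 5, while MI 4 lay near the lowest Sham rat. The level was 2.07 ± 0.845 CPM for 5 MI rats, against 1.39 ± 0.597 CPM for 4 Sham rats (± SD), a fold change of 1.5 (log2 0.58, SE 0.39, edgeR likelihood-ratio adjusted p = 1.00). The 95% interval from limma-voom ran from 0.797-fold to 2.73-fold. The coefficient of variation was 40.8% in MI and 43.0% in Sham, where counting error alone would give 27.5% and 34.3%. The log2 fold change was 0.34 without Sham 4 and 0.39 without MI 5. It was 0.84 without Sham 3 (edgeR likelihood-ratio unadjusted p = 0.0481) and 0.78 without MI 4 (edgeR likelihood-ratio unadjusted p = 0.0269). Sham 3 lay among the MI rats and MI 4 near the lowest Sham rat. Leaving out such a rat favours a smaller p, so these values are not support for a difference. The lowest adjusted p of Cnr2 under any alternative was 0.848, by the edgeR likelihood-ratio test with 1 common dispersion.

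Of 8 macrophage markers, 7 had log2 fold changes above 0, with a median of 0.24. Their summed level was 231, 246, 250, 186 and 258 CPM in MI rats 1 to 5, against 213, 178, 245 and 182 CPM in Sham rats 1 to 4, with no marker at 0. The groups overlapped. B cell markers, of which 4 of 5 were matched, summed to 3.83 to 16.0 CPM in MI and 5.22 to 11.2 CPM in Sham. The part of these cells in the Cnr2 value was not tested.

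**Figure D3:**
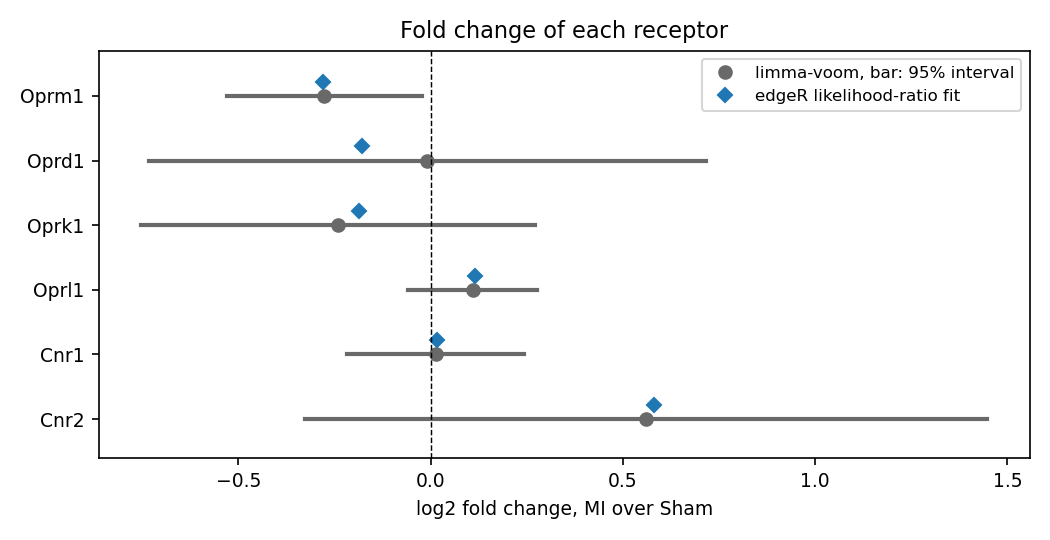
Log2 fold change of MI over Sham for each receptor, from the edgeR likelihood-ratio fit (diamonds) and from limma-voom (circles, with 95% intervals unadjusted for the number of genes). The interval is narrowest for Oprl1, -0.06 to 0.28, and widest for Cnr2, -0.33 to 1.45.

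Set against each other within a rat, the receptors gave 1 ratio that separated the groups. Of the 15 pairs, the ratio of Oprm1 to Oprl1 counts did not overlap between groups. This pair was chosen after its values were seen. The ratio was 0.345, 0.327, 0.331, 0.285 and 0.332 in MI rats 1 to 5, against 0.381, 0.442, 0.394 and 0.479 in Sham rats 1 to 4. Every MI rat lay below every Sham rat, and library scaling cancels out of a ratio within a library. The mean was 0.324 ± 0.0228 for 5 MI rats, against 0.424 ± 0.0452 for 4 Sham rats (± SD), a log2 difference of -0.38. When each tested gene in turn was set over Oprl1, 302 genes, or 2.58%, gave the same separation with MI lower and 8 gave it with MI higher, so with Oprl1 as the denominator the separations were mostly in 1 direction.

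**Figure D4:**
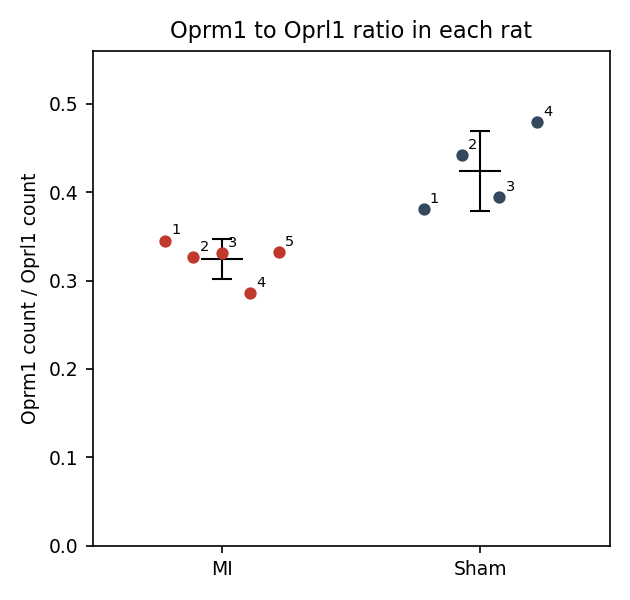
Ratio of Oprm1 to Oprl1 read counts in each rat, with MI left of Sham; numbers give the rat within its group, and the bar and whiskers give mean and SD. The MI rats lie between 0.285 and 0.345, below the Sham rats at 0.381 to 0.479.

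Correlations of log2 CPM over the 9 rats were computed for the 15 receptor pairs and for each receptor against a pan-neuronal score, the mean centred log2 CPM of the 10 neuronal markers. None of the 21 passed Benjamini-Hochberg adjustment. Cnr2 had the strongest relation, an inverse one with the neuronal score (Pearson r = -0.75, exact permutation p = 0.0174, adjusted p = 0.366; Spearman rho = -0.70, exact p = 0.0433, adjusted p = 0.454). Without the 2 rats farthest from the median of Cnr2 the r was -0.58. Oprm1 and Oprk1 varied in the same direction (r = 0.67, exact p = 0.0459, adjusted p = 0.367; rho = 0.70, exact p = 0.0433, adjusted p = 0.454), and r was 0.68 without the 2 rats farthest from the median of Oprm1. With values centred on the group means, r was -0.78 for Cnr2 with the neuronal score (adjusted p = 0.103, exact permutation) and 0.77 for Oprl1 with the neuronal score (adjusted p = 0.103, exact permutation). Centred values of Oprm1 gave r of 0.74 with Oprl1, 0.70 with Oprd1 and 0.66 with Oprk1 (adjusted p = 0.158, 0.175 and 0.204, exact permutation).

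Tested genes whose log2 CPM was most like each receptor over the 9 rats are given with Pearson's r as a description, since they were picked from the highest among all tested genes. For Oprm1 these were Usp34 (r = 0.93), Adgrl1 (0.93) and Speg (0.92). For Oprd1 they were Hspb2 (0.96) and Zfp263 (0.91), and for Oprk1 they were Hsp90ab1 (0.93), Tbc1d25 (0.92) and Rbm8a (0.92). For Oprl1 they were Hes5 (0.96), Vezt (0.93) and Trappc8 (0.92), and for Cnr1 Lpcat3 (0.91), Spryd3 (0.91) and Exoc6b (0.90). For Cnr2 they were Tspan1 (0.97), Tinagl1 (0.95) and C1qa (0.93), the last one of the 8 macrophage markers. Hes5, Hspb2 and Tspan1 were themselves low, at mean levels of 1.85, 3.98 and 3.26 CPM.

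The precursors of the opioid peptides had low levels in these ganglia, and none of the 3 tested passed the threshold. Penk, the enkephalin precursor whose peptides act on delta and mu receptors, stood at 2.41, 5.09, 5.50, 6.99 and 5.43 CPM in MI rats 1 to 5, against 5.52, 4.43, 4.42 and 7.01 CPM in Sham rats 1 to 4. MI 1 was the lowest of the 9 rats and the other 4 MI rats lay within the Sham range. Its log2 fold change was -0.07 (SE 0.30, edgeR likelihood-ratio adjusted p = 1.00). Pomc, the beta-endorphin precursor, averaged 1.76 ± 0.490 CPM for 5 MI rats, against 1.71 ± 0.479 CPM for 4 Sham rats (± SD), with a log2 fold change of 0.03. Pnoc, the precursor of nociceptin, the ligand of Oprl1, averaged 1.86 ± 0.622 CPM for 5 MI rats, against 1.38 ± 0.561 CPM for 4 Sham rats (± SD), with a log2 fold change of 0.43 (SE 0.30, edgeR likelihood-ratio adjusted p = 1.00). The Pnoc value was 0.23 without Sham 2 and 0.68 without Sham 3, and Pnoc did not pass the filter on low counts without MI 2, MI 3 or MI 5. Pdyn, the dynorphin precursor, did not pass the filter, with 2 to 4 counts in MI and 1 to 7 counts in Sham libraries.

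The other genes around these receptors were read from lists by role, and 0 of the 88 tested members passed in either direction. Over all 11711 tested genes 2 passed, or 0.0171%, so a count of 0 says little about these lists. Beside each list stands its median log2 fold change, against 0.00175 over all tested genes. Among 8 peptidases that cleave opioid peptides, 3 had log2 fold changes above 0, with a median of -0.03. Anpep, aminopeptidase N, which degrades enkephalins, had the smallest p: it stood at 30.3, 34.0, 28.9, 20.6 and 31.1 CPM in MI rats 1 to 5, against 17.5, 16.0, 28.1 and 18.6 CPM in Sham rats 1 to 4 (log2 0.53, SE 0.21, edgeR likelihood-ratio adjusted p = 0.537). Sham 3 lay among the MI rats, and without it the adjusted p was 0.00549 by the same test. Leaving out a rat that lies among the other group favours a smaller p, so this value is not support for a difference. Under 20 of 22 alternatives Anpep did not pass the threshold. Of 7 mural cell markers, 6 were above 0 with a median of 0.65, and they summed to 230 to 344 CPM in MI and 193 to 242 CPM in Sham ganglia; their part in the Anpep value was not tested. Npepps, a cytosolic aminopeptidase, had the highest level, 216 ± 12.3 CPM for 5 MI rats, against 218 ± 9.24 CPM for 4 Sham rats (± SD).

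Of 9 tested genes of endocannabinoid synthesis, 7 had log2 fold changes below 0, with a median of -0.09. Abhd4, a lipase of the anandamide pathway, had both the smallest p and the highest level, at 556, 555, 576, 609 and 586 CPM in MI rats 1 to 5, against 687, 685, 650 and 597 CPM in Sham rats 1 to 4 (log2 -0.18, SE 0.05, edgeR likelihood-ratio adjusted p = 0.478). Sham 4 lay below MI 4, and the other Sham rats lay above all MI rats. Of 7 genes of endocannabinoid breakdown, 5 were below 0, with a median of -0.04. Faah, the hydrolase that inactivates anandamide, averaged 8.53 ± 1.68 CPM for 5 MI rats, against 10.7 ± 1.57 CPM for 4 Sham rats (± SD) (log2 -0.33, SE 0.16, edgeR likelihood-ratio adjusted p = 1.00). Abhd12, which hydrolyses monoacylglycerols, had the highest level of this list, 269 ± 18.6 CPM for 5 MI rats, against 276 ± 1.64 CPM for 4 Sham rats (± SD).

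The Gi/o subunit list had 10 of 12 tested members below 0, with a median of -0.05. Gng2, a gamma subunit, had log2 -0.08 (SE 0.02, edgeR likelihood-ratio adjusted p = 1.00). Its groups did not overlap, which held with MI lower for 0.905% of all tested genes. Gnb1, a beta subunit, was the most abundant at 426 ± 15.6 CPM for 5 MI rats, against 423 ± 12.4 CPM for 4 Sham rats (± SD). Receptor kinases and arrestins, which desensitise the receptors, had 5 of 7 below 0 and a median of -0.07. Adrbk1, which encodes GRK2, had the smallest p and the highest level of that list, at 87.8 ± 6.56 CPM for 5 MI rats, against 93.1 ± 6.56 CPM for 4 Sham rats (± SD) (log2 -0.09). The RGS list, whose proteins speed the hydrolysis of GTP by G proteins, had 9 of 13 below 0 and a median of -0.03. Rgs8 had log2 -0.51 (SE 0.29), and Rgs4, by far the most abundant, stood at 1306 ± 221 CPM for 5 MI rats, against 1341 ± 104 CPM for 4 Sham rats (± SD).

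Of 8 tested genes for proteins that bind or sort the receptors, 5 were below 0, with a median of -0.01. Gpm6a, a neuronal membrane glycoprotein gene, had log2 -0.33 (SE 0.17, edgeR likelihood-ratio adjusted p = 0.903), and Reep5 was the most abundant at 1616 ± 42.8 CPM for 5 MI rats, against 1667 ± 67.6 CPM for 4 Sham rats (± SD). Without Sham 3, whose value lay among those of the MI rats, the adjusted p of Gpm6a was 0.0113, by the same test. Leaving out such a rat favours a smaller p, and under 20 of 22 alternatives Gpm6a did not pass the threshold. The adenylyl cyclase list had 7 of 8 below 0, a median of -0.06, Adcy1 at log2 -0.18 and Adcy3 highest at 46.5 ± 1.90 CPM for 5 MI rats, against 48.8 ± 3.14 CPM for 4 Sham rats (± SD). Of the GIRK channels, opened by G protein beta-gamma subunits, 3 of 4 were tested, with a median of 0.05. Kcnj3 was the most abundant, at 37.6 ± 3.06 CPM for 5 MI rats, against 33.3 ± 3.18 CPM for 4 Sham rats (± SD) (log2 0.17).

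The list of calcium channel subunits had 8 of 8 below 0, with the lowest median of the 12 lists, -0.14. Their summed level was 760, 598, 688, 655 and 609 CPM in MI rats 1 to 5, against 690, 780, 715 and 724 CPM in Sham rats 1 to 4. The peptidergic nociceptor markers, also 8 of 8 below 0, summed to 3121, 2455, 2705, 2763 and 2231 CPM in MI rats 1 to 5, against 2690, 2890, 3000 and 2952 CPM in Sham rats 1 to 4. In MI, rat 1 was highest and rats 2 and 5 were lowest in both sums. Non-peptidergic nociceptor markers were below 0 in 5 of 6 (median -0.10), at 1141 to 1523 CPM in MI and 1341 to 1502 CPM in Sham. Schwann cell markers were below 0 in 7 of 7 (median -0.15), at 9132 to 14613 CPM in MI and 11019 to 13916 CPM in Sham. The part of these cells in the calcium channel values was not tested. Cacna2d2, an auxiliary subunit, stood at 33.6, 27.1, 29.8, 32.5 and 28.0 CPM in MI rats 1 to 5, against 38.7, 37.9, 37.6 and 37.0 CPM in Sham rats 1 to 4 (log2 -0.32, SE 0.07, edgeR likelihood-ratio adjusted p = 0.258). Its groups did not overlap, which held with MI lower for 0.905% of tested genes. Cacnb3 was the most abundant, at 232 ± 16.9 CPM for 5 MI rats, against 255 ± 23.8 CPM for 4 Sham rats (± SD). Among other receptors for opioid or cannabinoid-type ligands, 3 of 5 tested were below 0, with a median of -0.02. Trpv1, the capsaicin receptor, which anandamide also activates, averaged 109 ± 11.7 CPM for 5 MI rats, against 117 ± 6.99 CPM for 4 Sham rats (± SD), with log2 -0.11.

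**Figure D5:**
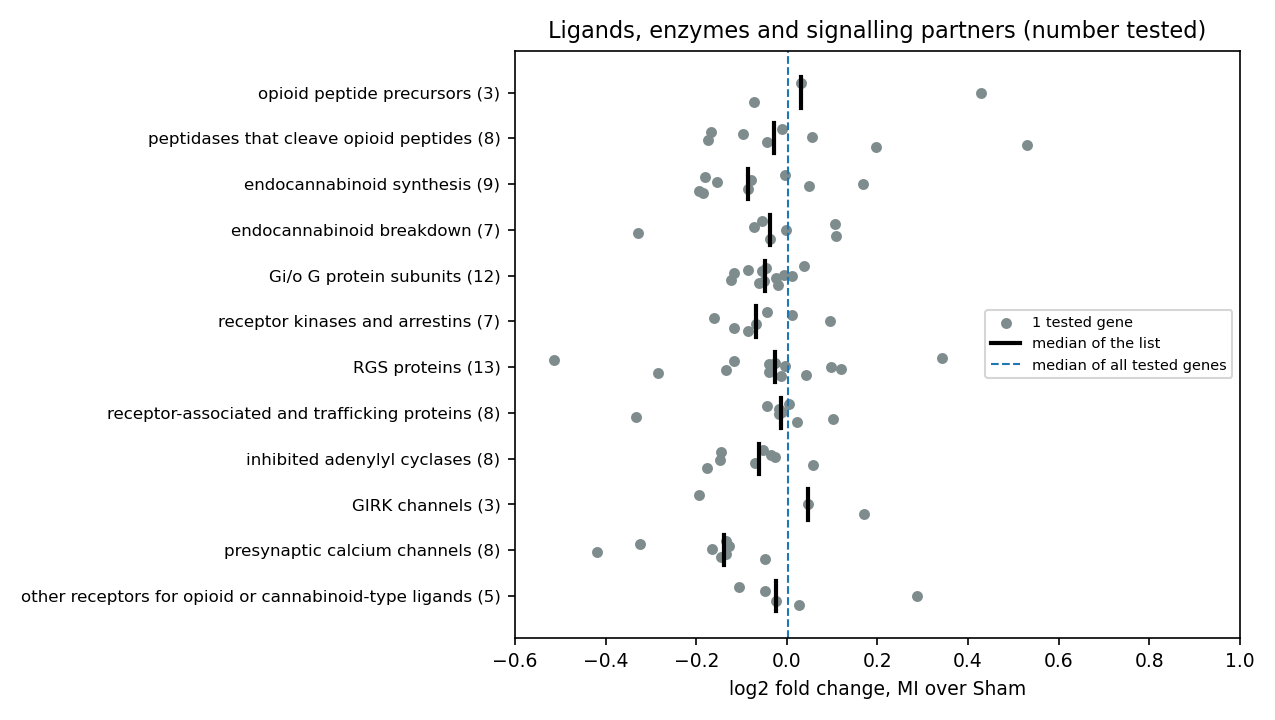
Log2 fold change of MI over Sham for each tested gene (grey points) of 12 lists of ligands, enzymes and signalling partners; black bars are list medians and the dashed line is the median of all tested genes. No point passed the threshold, and the calcium channel subunits have the lowest median, -0.14.

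For Oprm1 the authors' deposited table gives a fold change of 0.822, p = 0.0273 and adjusted p = 0.857 by edgeR. In the authors' deposited table Oprd1, Oprk1, Oprl1 and Cnr2 have fold changes of 0.882, 0.878, 1.08 and 1.5, each with an adjusted p of 1.00 by edgeR. The authors' value for Cnr1 was not analysed here.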

How the data were processed

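Per the series' design text, 75 bp reads went through bcl2fastq 2.16.0.10 and cutadapt trimming, then STAR 2.3.0 on rn6 with Partek 6.6 annotations. The sources used here do not give whether counting used strand. The deposited counts were rounded by the authors from deposited estimated counts, with differences of at most 0.5. The authors' RPKM values scale counts by gene length and total reads, as the values show. The authors' deposited table gives TMM-scaled CPM, mean log2 CPM, fold changes and p-values, as per the file headers. A deposited summary gives reads and percent of reads per region, and the deposited sample sheet gives RNA integrity, a score.

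MI and Sham counts were compared in R 4.3.3 with edgeR 4.0.16 (filterByExpr, TMM, tagwise dispersions, the likelihood-ratio test named by the study; the quasi-likelihood test beside it), adjusted by Benjamini-Hochberg over 11711 genes at 0.05. Date-like identifiers (26 rows, 0.241% of counts) stayed in the tests. CPM values are TMM-scaled. Each SE is that of the MI minus Sham difference on log2 CPM (prior count 2, spread pooled over groups); intervals are from limma-voom (limma 3.58.1). DESeq2 1.42.0 and other scalings, filters, dispersions, units and left-out libraries were alternatives. The edgeR tests were tried on simulated counts, as a check of the sign of calls and the recovery of large changes. The recovery of changes as small as those of the receptors is not given here. p-values measure the spread between these rats. Counting-error values cover counting error only.

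The receptors, lists and tests were chosen with earlier results of these data known. Named genes were the 6 receptors, the 4 peptide precursors, in each other pathway list the members past the threshold or else the one with the smallest p, the most abundant member, and the 3 genes most like each receptor; 2 genes that this rule names are not reported here. The rule also covered cell type marker lists, which are given as summed levels instead. Of the list genes, symbols were matched to the count table directly or by RefSeq synonym; Pla2g4e, Gng4, Sgip1, Gprasp2, Adcy9 and Gpr55 were not analysed here.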

Additional observations from a re-analysis of the deposited data

Results flagged for a closer look

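Dixon's gap criterion, applied to the extreme rats of each group, picked 3 of 42 groups, where chance alone gives about 2.1, or 1 group in 20. Oprl1 was high in Sham 4 at 57.19 CPM, against 50.9 to 51.9 CPM in the other Sham rats. Gpm6a had 54.68 CPM in Sham 3, below the other Sham rats at 82.7 to 87.0 CPM. Adcy1 had 14.34 CPM in Sham 4, below the other Sham rats at 18.9 to 19.6 CPM.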

How the results depend on the processing

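No receptor passed the threshold under any of 22 alternatives, and 127 of 132 values kept their direction. The 5 that turned were Oprd1 without Sham 4 and Cnr1 without Sham 1, MI 4 or MI 5 and with the replicate block (-0.0069 on the log2 scale). Over fits that left out 1 rat, the log2 fold change ranged from -0.35 to -0.17 for Oprm1, -0.41 to 0.17 for Oprd1, -0.40 to -0.07 for Oprk1, 0.07 to 0.16 for Oprl1, -0.058 to 0.092 for Cnr1 and 0.34 to 0.84 for Cnr2. For Penk it ranged from -0.21 to 0.10, for Pomc from -0.094 to 0.24 and for Pnoc from 0.23 to 0.68. The difference in log2 CPM of the exact tests ranged from -0.33 to -0.17 for Oprm1, with p under 0.05 without MI 1 or Sham 1. MI 1 lay among the Sham rats and Sham 1 was the lowest Sham rat, and leaving out such a rat favours a smaller p. The same difference ranged from -0.24 to 0.25 for Oprd1 and from -0.064 to 0.092 for Cnr1. For Oprd1 a prior count of 0.5 gave 0.0081. The MI minus Sham difference in the log2 ratio of Oprm1 to Oprl1 counts ranged from -0.43 to -0.32 with 1 rat left out. This comparison was chosen after the data were seen. Each neighbour in the order of levels kept its direction and an adjusted p under 0.05 (sign-flip test) under all 11 alternatives. The number of all tested genes past the threshold was 2. It was 0 with the quasi-likelihood test, limma-voom and both RPKM fits, 4 with upper-quartile factors, 6 with no filter on low counts, 70 with 1 common dispersion, 12 with the replicate block and 2 to 8 with 1 rat left out; the cause was not tested. With 1 common dispersion the edgeR adjusted p was 0.000871 for Anpep and 0.0414 for Gpm6a. Same-numbered rats are separate animals: their deviations correlated at -0.13, -0.14, 0.04 and 0.09, and 1 of 8 rats correlated best with its own number. These correlations cannot exclude a surgery or processing batch shared by number, and the main tests treated the rats as unpaired. Oprd1 and Cnr2 had means of 13.0 and 11.1 counts per library, and how far depth limits their tests was not tested.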
